A study of Mus musculus with 2 samples.

Results

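The 10 genes described here encode the MHC class I molecule and the proteins that load it with peptide: B2m, H2-K1, H2-D1, H2-T23, Tap1, Tap2, Tapbp, Calr, Canx and Pdia3. They were chosen by name and not by a threshold, from 43346 mouse genes in the tables, and all 10 were matched by gene ID to a symbol in GENCODE M21. They were measured in thymus RNA of newborn B6NCrl mice, taken on postnatal day 0, in 1 library from pup 6 (replicate 1) and 1 from pup 7 (replicate 2). The labels list 1 donor for both pups, the young of a Charles River C57/Bl6 female, and name no treatment or genetic change, and the sex was not collected. Each library was made from 13 pg of total RNA above 200 nt, an amount given as 1 cell equivalent, so the material was bulk tissue RNA diluted to the content of a cell. There is 1 group, so the data give levels and the spread between the pups, with no condition to compare and no test.

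MHC class I molecules stand on the surface of nearly all nucleated cells and show peptides from inside the cell to CD8 T cells. A heavy chain folds in the endoplasmic reticulum (ER) with the help of chaperones, joins the light chain beta-2 microglobulin, and receives a peptide that the TAP transporter has carried in from the cytosol and that tapasin helps to select. In the thymus, class I molecules on cortical epithelium and other cells are the ligands on which developing CD8 T cells are selected.

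The tables held 25999043 expected counts in mouse genes in replicate 1 and 31902773 in replicate 2, where an expected count is an estimated read count that need not be whole. Genes with at least 1 count numbered 10275 in replicate 1 and 11764 in replicate 2. Levels are given as TPM, which corrects counts for transcript length and depth, rescaled to 1000000 over mouse genes. All 12 markers of the T lineage were read in both libraries, and they summed to 15678 TPM in replicate 1 and 15589 TPM in replicate 2. Markers of thymic epithelium summed to 2629 and 2847 TPM, 9 of 10 being read in both and Foxn1 at 0 counts in replicate 1 alone. Single epithelial markers differed more than their sum. Of the 10, 2 were at least 2-fold higher in replicate 1 and 3 in replicate 2, and 2 had 3 or fewer counts in 1 library. Over the 9341 mouse genes averaging at least 100 counts, these shares were 29.7%, 38.0% and 35.1%. In bulk RNA, fewer cells of a type and less RNA per cell cannot be told apart.

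All 10 genes were read in both pups, and none had fewer than 5599 counts in replicate 1 or 6901 in replicate 2. Together they gave 5269 TPM in replicate 1 and 4819 TPM in replicate 2 (5044 ± 318, SD, n = 2), which is 0.527% and 0.482% of mouse TPM. By mean level the order was B2m, H2-D1, H2-K1, Calr, Pdia3, H2-T23, Tapbp, Tap2, Tap1 and Canx. The values of neighbours in that order overlapped between the pups for Calr and Pdia3, for Pdia3 and H2-T23, and for Tap2 and Tap1. The last 2 of these pairs stood in opposite order in the 2 libraries, and the other 6 pairs of neighbours did not overlap.

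B2m encodes beta-2 microglobulin, the invariant light chain of every classical class I molecule (ENSMUSG00000060802, GRCm38 chromosome 2, 122147686 to 122153083, plus strand). It had 36563 counts in replicate 1 and 34556 in replicate 2, or 2351 and 1966 TPM (2159 ± 272, SD, n = 2). It was the highest of the 10 genes in both pups, and by TPM it ranked 45th among mouse genes in replicate 1 and 51st in replicate 2. B2m has a single annotated transcript, and none of the 761 stretches of 100 bases along it occurs in a transcript of another M21 gene. Patl2 is annotated on the opposite strand over the whole of the gene, with 2374 counts in replicate 1 and 0 in replicate 2. Whether counting used strand is not given in the sources used here. The stretches were sought on either strand, so the M21 transcripts of Patl2 hold none of them.

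The heavy chains H2-K1 and H2-D1 encode the classical molecules K and D, and H2-T23 encodes the nonclassical molecule Qa-1, which presents leader peptides of other class I chains. All 3 lie on chromosome 17 in the mouse MHC. H2-K1 (ENSMUSG00000061232, 33996017 to 34000347, minus strand) had 18610 counts in replicate 1 and 17451 in replicate 2, or 633 and 506 TPM (569 ± 89.4). H2-D1 (ENSMUSG00000073411, 35262730 to 35267499, plus strand) had 27713 counts in replicate 1 and 49757 in replicate 2, or 680 and 1087 TPM (884 ± 288). The balance of the classical chains differed between the 2 libraries, with an H2-D1 level 1.08 times that of H2-K1 in replicate 1 and 2.15 times in replicate 2. H2-T23 (ENSMUSG00000067212, 36029773 to 36032855, minus strand) had 7028 counts in replicate 1 and 9503 in replicate 2, or 194 and 275 TPM (235 ± 57.1), the lowest heavy chain of the 3 in both. The 3 heavy chains summed to 1507 TPM in replicate 1 and 1868 TPM in replicate 2, so B2m stood at 1.56 and 1.05 times their sum.

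Heavy chain genes resemble each other, which bears on how reads can be assigned. Over their aligned coding bases, H2-K1 and H2-D1 were 91.5% identical, H2-K1 and H2-T23 82.0%, and H2-D1 and H2-T23 81.1%. The run below is the longest that any 2 of the 3 share without a difference, 145 bases from coding base 663 of H2-D1 and from coding base 651 of H2-T23 (chromosome 17, GENCODE M21). A read that lies inside it cannot be placed from its letters alone.

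H2-D1 and H2-T23: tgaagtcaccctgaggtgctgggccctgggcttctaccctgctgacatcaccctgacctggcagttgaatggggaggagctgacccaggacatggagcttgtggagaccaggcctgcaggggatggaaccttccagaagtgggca

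Such stretches were a small part of each gene. Of the 100-base stretches along the main coding transcript, 4.64% of H2-D1 and 7.28% of H2-T23 occurred in another M21 gene, most often H2-Q1 and the gene model Gm7030, and 0 of 1520 did for H2-K1. The deposited posterior SD of the count, a measure of how surely reads were placed, was 18.1 and 21.7 counts for H2-D1 in replicates 1 and 2, 15.3 and 20.0 for H2-T23, and 1.24 and 1.54 for H2-K1. In counts per mouse count, the log2 ratio between the pups was -0.55 for H2-D1, -0.14 for H2-T23 and 0.39 for H2-K1. The part of shared reads in these differences was not tested.

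**Figure D1:**
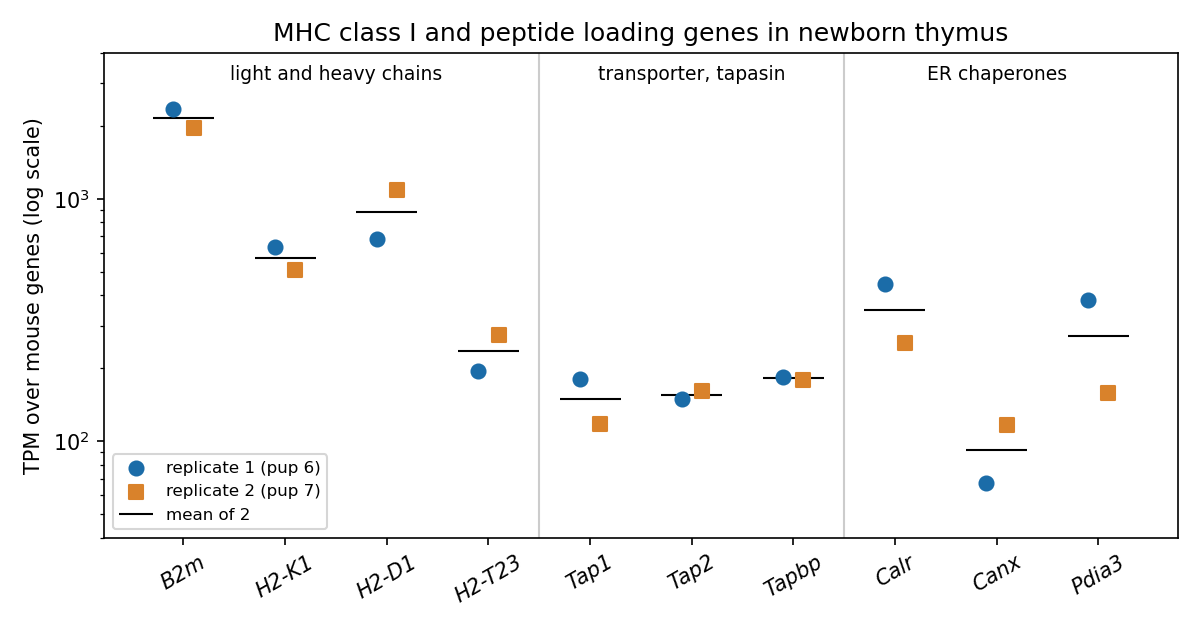
Level of each of the 10 genes in TPM over mouse genes on a log axis, with replicate 1 as circles, replicate 2 as squares and the mean of 2 as a line, ordered by role. B2m lies highest at 2351 and 1966 TPM, H2-D1 lies higher in replicate 2, and Pdia3 and Calr lie higher in replicate 1.

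Tap1 and Tap2 encode the subunits of the TAP transporter, and Tapbp encodes tapasin, which bridges the transporter to the heavy chain. Tap1 (ENSMUSG00000037321, chromosome 17, 34187553 to 34197225, plus strand) had 9712 counts in replicate 1 and 6901 in replicate 2, or 181 and 117 TPM (149 ± 45.2). Tap2 (ENSMUSG00000024339, chromosome 17, 34203527 to 34216321, plus strand) had 6038 counts in replicate 1 and 9648 in replicate 2, or 149 and 161 TPM (155 ± 8.27). Tapbp (ENSMUSG00000024308, chromosome 17, 33915899 to 33929292, plus strand) had 6556 and 8610 counts, or 184 and 179 TPM (182 ± 3.25). Summed over all transcripts, Tap1 stood at 1.22 times Tap2 in replicate 1 and 0.73 times in replicate 2. The coding transcripts Tap1-201 and Tap2-201 stood further apart in the deposited TPM, at 104 and 8.10 in replicate 1 and at 86.1 and 23.9 in replicate 2. Tap2 also had 2 short coding transcripts, Tap2-203 and Tap2-204, at 14.5 and 19.2 in replicate 1 and 0 in replicate 2. Tapbp differed least between the pups of the 10 genes, with a log2 ratio of replicate 1 over replicate 2 of 0.04 in TPM, and its sign turned to -0.10 in counts per mouse count. Of the 100-base stretches along the coding transcript, 14.0% of Tapbp occurred in another M21 gene, mostly the antisense gene model Gm19412, and 5.35% of Tap2 did, while 0 of 2515 did for Tap1. The Tap2 value is for Tap2-201. Tap2-202, annotated as a retained intron and holding 70.0% and 84.1% of Tap2 TPM, was not searched. Gm19412 had 0 counts in replicate 1 and 239 in replicate 2, and Zbtb22, which overlaps Tapbp on the same strand, had 0 and 386. The 3 genes together gave 514 TPM in replicate 1 and 457 TPM in replicate 2.

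Calr and Canx encode the lectin chaperones calreticulin and calnexin, which hold sugar-bearing chains while they fold, and Pdia3 encodes a disulfide isomerase that works with both and with tapasin. Calr (ENSMUSG00000003814, chromosome 8, 84841850 to 84846934, minus strand) had 15804 counts in replicate 1 and 10484 in replicate 2, or 445 and 253 TPM (349 ± 136). Canx (ENSMUSG00000020368, chromosome 11, 50293961 to 50325673, minus strand) had 5599 and 11079 counts, or 67.4 and 116 TPM (91.8 ± 34.6). Pdia3 (ENSMUSG00000027248, chromosome 2, 121413775 to 121438687, plus strand) had 15870 and 7588 counts, or 384 and 158 TPM (271 ± 160). Calr and Pdia3 were thus higher in replicate 1 and Canx higher in replicate 2. Within a library, Calr stood at 6.60 times Canx in replicate 1 and 2.18 times in replicate 2, and Pdia3 at 5.70 and 1.36 times Canx. None of the 3 chaperones shared a 100-base stretch with another gene, and the posterior SD of each count was 0.

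Measured against the spread between the pups, Pdia3 was the only one of the 10 genes that differed by 2-fold or more. Ratios below are log2 of replicate 1 over replicate 2 after adding 1 TPM to each value, which draws low genes toward 0. Pdia3 had a ratio of 1.28, and its counts, scaled to mouse counts, differed 2.57-fold (95% exact interval 2.50 to 2.64, for counting error only, since reads carry no molecular identifiers in the tables). The others ran from -0.78 for Canx and -0.68 for H2-D1, through -0.50 for H2-T23 and -0.11 for Tap2, to 0.26 for B2m, 0.32 for H2-K1, 0.62 for Tap1 and 0.81 for Calr. With counts scaled by TMM, which leaves transcript length out, Tap2 stood at -0.50 and H2-T23 at -0.26. In all, 6 of the 10 were higher in replicate 1 and 4 in replicate 2, with a median ratio of 0.15 against -0.17 over the 9341 mouse genes averaging at least 100 counts.

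Among those 9341 genes, 67.7% differed by 2-fold or more in either direction, against 1 of the 10. Of the background, 29.7% were at least 2-fold higher in replicate 1, where 1 member was, and 38.0% were at least 2-fold higher in replicate 2, where 0 members were. At 4-fold the background was 50.9% and the members' count 0. The background is mostly made of genes with fewer reads, and 3277 of its genes had 3 or fewer counts in 1 library, which no member had. Among the 661 mouse genes whose mean count lay between that of Tapbp (7583) and that of H2-D1 (38735), 22.2% differed by 2-fold or more and 4.69% by 4-fold or more. The median size of the log2 ratio was 0.56 over the 10 genes, 2.07 over the 9341 and 0.51 over the 661, so the median of the 10 lay near that of genes with as many reads. Of 7 spike-ins read in the same count range, 0 differed by 2-fold, and their ratios ran from -0.66 to 0.37 with a median size of 0.13. Matched to the members by deposited TPM instead, 6 of 15 spike-ins differed by 2-fold, with a median size of 0.92, a range from -7.90 to 1.29 and 2 spike-ins at 3 or fewer counts in 1 library.

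**Figure D2:**
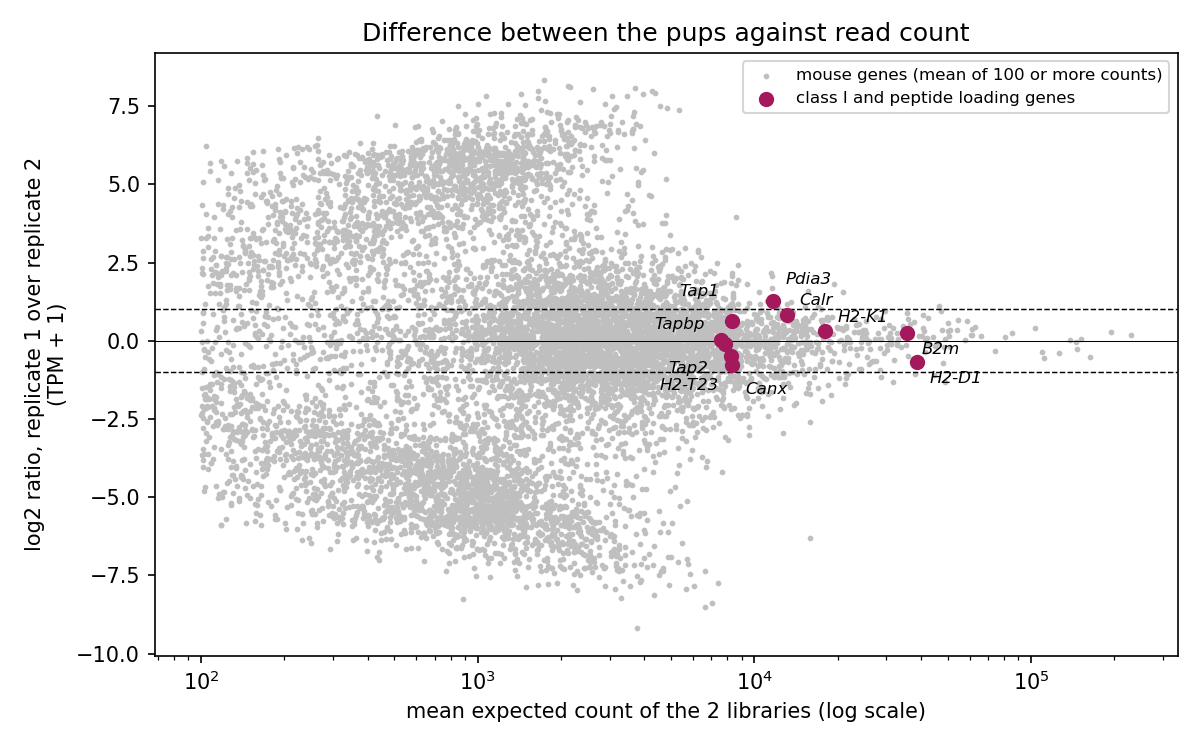
Log2 ratio of replicate 1 over replicate 2 (TPM + 1) against the mean expected count of the 2 libraries on a log axis, for mouse genes averaging at least 100 counts in grey and the 10 genes in purple, with dashed lines at 2-fold. Pdia3 alone of the 10 lies outside the dashed lines, at 1.28, and the grey points spread widely at low counts.

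Markers of other cells in the organ differed between the same 2 libraries. Over the 9341 genes averaging at least 100 counts, 29.7% were at least 2-fold higher in replicate 1 and 38.0% in replicate 2. Erythroid markers summed to 3527 TPM in replicate 1 and 9133 TPM in replicate 2, with 7 of 7 read in both. Of the 5 averaging at least 100 counts, 4 were at least 2-fold higher in replicate 2. Myeloid markers summed to 532 and 1023 TPM, with 7 of 9 read in both and Itgax at 0. Single myeloid markers went both ways: of 8 averaging at least 100 counts, 2 were at least 2-fold higher in replicate 1 and 5 in replicate 2. Endothelial markers summed to 290 and 121 TPM, with 3 of 7 read in both and Kdr and Emcn at 0. Of the 4 averaging at least 100 counts, 2 were at least 2-fold higher in replicate 1 and 1 in replicate 2. Mesenchyme markers summed to 1570 and 1335 TPM, with 7 of 8 read in both. The 6 averaging at least 100 counts all lay within 2-fold. The part of these cells in the differences of the class I and loading genes was not tested.

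The same transcript led in both pups for each of the 10 genes, and for 9 of them it was protein-coding. The authors' tables divide the 10 genes over 48 transcripts, of which 29 were above 0 TPM in both pups, 11 in 1 pup and 8 at 0 in both. H2-D1-202 held 99.3% of H2-D1 TPM in replicate 1 and 98.7% in replicate 2. H2-K1-201 held 79.2% and 70.7% of H2-K1, with H2-K1-205, also coding, at 6.61% and 22.1%. Canx-205 held 77.3% and 91.0% of Canx, and the coding Canx-201 held 22.8% and 8.67%. Tap1-201 held 61.6% and 78.4% of Tap1, and a longer coding transcript, Tap1-206, held 37.2% and 19.6%.

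Tap2 was the exception. Its leading transcript in both pups was Tap2-202, annotated as a retained intron, with 5241 counts and 70.0% of Tap2 TPM in replicate 1, and 7681 counts and 84.1% in replicate 2. The full-length coding transcript Tap2-201 held 592 counts and 5.82% in replicate 1, and 1967 counts and 15.9% in replicate 2. In the deposited TPM, before rescaling, Tap2-201 stood at 8.10 in replicate 1 and 23.9 in replicate 2, so the level of Tap2 given above is mostly that of a transcript with no annotated protein. The antisense gene models Gm20496 and Gm15821 overlap Tap2, and Gm15821 had 433 counts in replicate 1 and 6.80 in replicate 2. Reads without strand cannot be told apart between them.

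H2-T23 differed between the pups in its transcripts more than in its total. Retained introns held 52.9% of its TPM in replicate 1 and 15.1% in replicate 2, and the coding transcript H2-T23-201 held 47.1% and 84.9%. By count, H2-T23-201 had 2566 in replicate 1 and 7400 in replicate 2, while the gene as a whole had a log2 ratio of counts per mouse count of -0.14. The antisense gene A930015D03Rik covers all 3083 bases of H2-T23 and had 0 counts in replicate 1 and 235 in replicate 2. Among the other members, retained introns held 27.9% and 23.4% of Calr and 26.0% and 31.8% of Tapbp. A transcript annotated for nonsense-mediated decay, Pdia3-203, held 31.2% and 28.7% of Pdia3. These short transcripts held less of the reads than of the TPM, and Pdia3-203 took 9.59% and 8.60% of Pdia3 counts. With 1 library from each pup, and shares that rest on the authors' division of reads among overlapping transcripts, these differences have no replicate check.

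**Figure D3:**
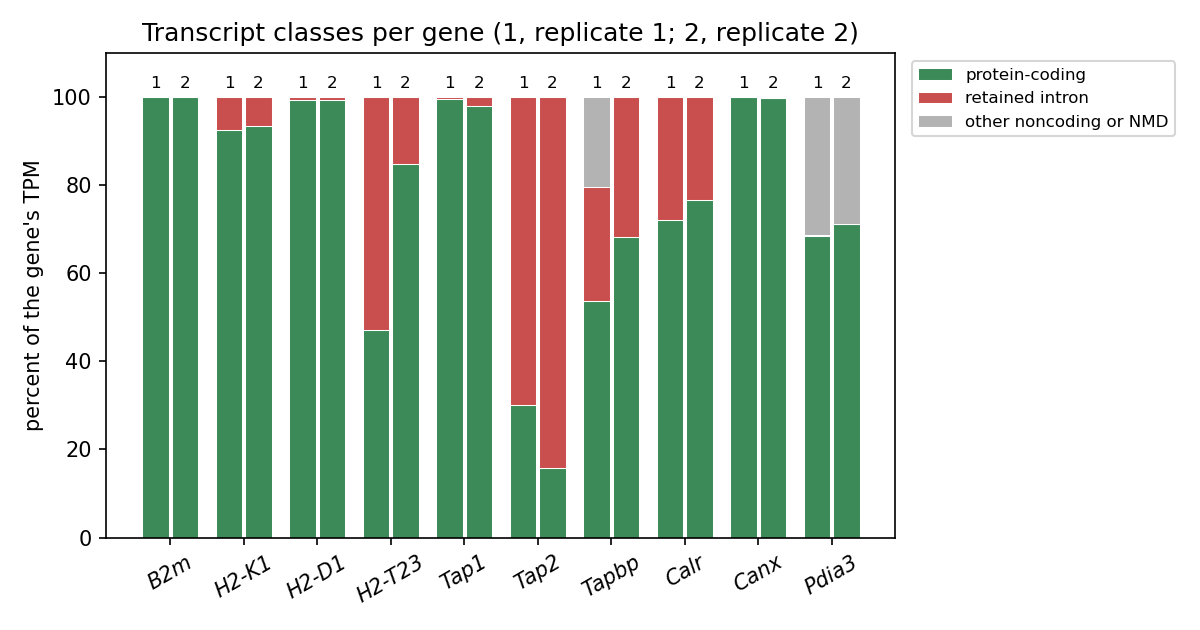
Percent of each gene's TPM in protein-coding transcripts, retained introns and other classes (other noncoding or nonsense-mediated decay), with replicate 1 as the left bar and replicate 2 as the right bar of each pair. Retained introns hold 70.0% and 84.1% of Tap2, and their part of H2-T23 is 52.9% in replicate 1 and 15.1% in replicate 2.

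Promoters of class I genes in mice are known for a shared layout, with an NF-kB site called enhancer A, an interferon response element, and a module of boxes bound by RFX, CREB or ATF factors and NF-Y, on which the coactivator NLRC5 acts. RefSeq promoter windows (GRCm38.p6) were found for 9 of the 10 genes. The windows of B2m, H2-K1 and H2-D1, 250 bases before the RefSeq start, are shown because motifs of that layout were found in them, the enhancer A core in H2-K1 and H2-D1 and not in B2m. Capitals mark GGGATTCCC (the core of enhancer A), TGACG (the CREB or ATF core) and CCAAT (the NF-Y box). For interferon response they mark a pair of GAAA with a gap of 2 bases (strict) or the shorter GAANNGAAA (loose). Each was sought on either strand, so that CCAAT also appears as ATTGG.

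B2m (chr2:122147437-122147686, plus strand): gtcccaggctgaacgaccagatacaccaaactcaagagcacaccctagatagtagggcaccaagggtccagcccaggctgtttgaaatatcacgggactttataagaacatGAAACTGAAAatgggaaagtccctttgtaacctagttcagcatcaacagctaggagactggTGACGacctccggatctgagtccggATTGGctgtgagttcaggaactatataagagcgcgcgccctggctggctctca

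H2-K1 (chr17:34000348-34000597, minus strand): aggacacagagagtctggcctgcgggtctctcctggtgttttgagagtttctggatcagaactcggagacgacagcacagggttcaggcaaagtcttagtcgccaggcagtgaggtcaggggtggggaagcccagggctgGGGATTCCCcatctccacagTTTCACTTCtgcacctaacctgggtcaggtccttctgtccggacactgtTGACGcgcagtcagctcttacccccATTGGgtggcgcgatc

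H2-D1 (chr17:35262844-35263093, plus strand): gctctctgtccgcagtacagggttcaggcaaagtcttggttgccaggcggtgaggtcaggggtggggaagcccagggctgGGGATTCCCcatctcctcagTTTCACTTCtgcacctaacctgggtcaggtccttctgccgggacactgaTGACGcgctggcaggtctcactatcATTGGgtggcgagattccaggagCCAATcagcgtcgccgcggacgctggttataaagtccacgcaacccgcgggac

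H2-K1 and H2-D1 carried the same 4 motifs in the same order and matched at 89.5% of 190 aligned bases. The enhancer A core began 110 bases before the start in H2-K1 and 170 bases before it in H2-D1, the interferon letters 90 and 150, TGACG 41 and 101, and the first ATTGG 16 and 76. The RefSeq start of H2-D1 lies within the M21 gene, downstream of the M21 start. H2-D1 also held another CCAAT box, which began 53 bases before the start and had no match in the H2-K1 window. The level of H2-K1 was higher in replicate 1 and that of H2-D1 higher in replicate 2. The part of the promoters in these levels was not tested. The enhancer A core occurred in 0.311% of 27025 RefSeq promoters of that length and, among the 9, in H2-K1 and H2-D1. The strict interferon letters occurred in 3.04% of promoters, with B2m and H2-T23 among them, and the loose letters in 6.34%, with H2-K1 and H2-D1 among them. The strict and loose forms differ in spacing, so neither is a subset of the other, though a promoter can hold both. TGACG occurred in 17.9% of promoters and in 6 of the 9, and CCAAT in 34.5% and in 9 of the 9. A match is a description of the letters and says nothing of binding in these samples.

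Calr and Canx are shown because both held the ER stress element, in which CCAAT and CCACG stand 9 bases apart, a motif found in 33 of the 27025 promoters (0.122%). Capitals mark that element alone, which reads on the reverse strand in Calr.

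Calr (chr8:84846932-84847181, minus strand): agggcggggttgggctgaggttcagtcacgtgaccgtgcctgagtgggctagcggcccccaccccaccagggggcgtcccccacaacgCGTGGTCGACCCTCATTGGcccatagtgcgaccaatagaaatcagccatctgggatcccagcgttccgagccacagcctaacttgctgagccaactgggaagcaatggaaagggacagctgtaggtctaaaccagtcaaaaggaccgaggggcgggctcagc

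Canx (chr11:50325674-50325923, minus strand): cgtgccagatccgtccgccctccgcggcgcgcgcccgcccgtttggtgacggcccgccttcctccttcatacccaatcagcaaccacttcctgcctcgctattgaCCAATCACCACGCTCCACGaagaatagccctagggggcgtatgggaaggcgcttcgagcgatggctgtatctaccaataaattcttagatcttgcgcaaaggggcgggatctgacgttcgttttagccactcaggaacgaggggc

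The element ended 144 bases before the start in Calr and 127 bases before it in Canx. The levels of the pair stood in opposite directions between the pups, at log2 ratios of 0.81 for Calr and -0.78 for Canx. Of 12 genes of the ER stress response, 6 were read in both libraries and 4 in 1 library. Xbp1, a transcription factor of that response, stood at 226 TPM in replicate 1 and 77.3 TPM in replicate 2, and Atf4, another, at 87.8 and 310 TPM. Creld2 stood at 100 and 62.8 TPM, Herpud1 at 132 and 224 TPM, and Manf at 0 and 225 TPM. Of the 7 averaging at least 100 counts, 2 were at least 2-fold higher in replicate 1 and 2 in replicate 2. The shares of all 9341 genes were 29.7% and 38.0%.

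Tap1 lies head to head with Psmb9, which encodes an immunoproteasome subunit and is transcribed the other way from a start 211 bases off. The RefSeq windows of the pair, 300 bases each, share 275 bases. The Tap1 window is shown for that reason, with TGACG and CCAAT in capitals.

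Tap1 (chr17:34187306-34187555, plus strand): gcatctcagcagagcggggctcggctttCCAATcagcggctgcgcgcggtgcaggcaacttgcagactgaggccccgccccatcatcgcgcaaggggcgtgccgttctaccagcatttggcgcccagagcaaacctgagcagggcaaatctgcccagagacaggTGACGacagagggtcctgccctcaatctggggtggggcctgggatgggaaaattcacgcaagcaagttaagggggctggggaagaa

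Tap1 had 181 TPM in replicate 1 and 117 TPM in replicate 2, and Psmb9, named for its place beside Tap1, had 69.2 and 275 TPM, so the 2 genes stood in opposite order between the pups. In M21 the pair overlap by 212 bases on opposite strands, and Psmb9 starts at base 34187764, so that its annotation covers the whole Tap1 window.

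Genes that make and trim the peptides form a longer list than the transporter genes, so the sums of the 2 lists cannot be compared. The 17 genes of that list found in M21 summed to 3406 TPM in replicate 1 and 3708 TPM in replicate 2, with 15 read in both pups. The immunoproteasome subunit Psmb8 stood at 734 and 749 TPM, a log2 ratio of -0.03, and Psmb10, another, at 159 and 480 TPM. The standard subunits Psmb6 and Psmb7 stood at 667 and 768 TPM and at 518 and 207 TPM. Psme2, a subunit of the proteasome activator, stood at 465 and 377 TPM. Psmb11, the thymus-specific subunit of cortical epithelium, stood at 87.8 and 16.3 TPM and was picked with its values known. The aminopeptidase Lap3 had 0 and 4234 counts. With 0 replaced by a floor of 3 counts, its counts per mouse count were 1150-fold lower in replicate 1. How far this ratio of reads holds for the RNA level was not tested. Of 16 averaging at least 100 counts, 5 were at least 2-fold higher in replicate 1 and 5 in replicate 2, with a median log2 ratio of 0.08. The shares of all 9341 genes were 29.7% and 38.0%.

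Of the genes of ER folding and quality control, 26 averaged at least 100 counts and 19 of these lay within 2-fold. Beside them, 67.7% of the 9341 genes differed by 2-fold or more, and 22.2% of the 661 in the members' count range. The 30 genes of this list that were found summed to 3636 TPM in replicate 1 and 2895 TPM in replicate 2, and 26 were read in both pups. The chaperone Hspa5 stood at 413 and 294 TPM, the disulfide isomerase P4hb at 276 and 291 TPM, the translocon subunit Sec61b at 487 and 560 TPM, and the prolyl isomerase Ppib at 653 and 144 TPM. Mogs, the glucosidase that trims the first sugar of new glycoproteins, had 2314 counts in replicate 1 and 0 in replicate 2. Of those 26, 5 were at least 2-fold higher in replicate 1 and 2 in replicate 2, with a median log2 ratio of 0.27. The peptide editor Tapbpl, a relative of tapasin picked with its values known, stood at 97.5 and 3.17 TPM.

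Other class I and class I-like heavy chains had lower levels than H2-K1, H2-D1 and H2-T23. The 23 found summed to 470 TPM in replicate 1 and 580 TPM in replicate 2, with 8 read in both pups, 8 in 1 and 7 in neither. The highest in mean were H2-T22 at 70.5 and 120 TPM, H2-T10 at 86.0 and 24.9 TPM, H2-Q5 at 109 and 0 TPM, H2-Q2 at 99.7 and 0.032 TPM, and Mr1, which presents vitamin metabolites, at 0.021 and 86.4 TPM. H2-Q6 had 2913 counts in replicate 1 and 0 in replicate 2, and H2-M3, which presents formylated peptides, had 0 and 2134. Hfe, H2-M2, Cd1d1 and H2-T24 were also at 0 counts in replicate 1, with 1321, 1581, 2009 and 371 counts in replicate 2. Of 14 averaging at least 100 counts, 10 had 3 or fewer in 1 library (71.4%, beside 35.1% of all 9341 genes). Of the 14, 4 were at least 2-fold higher in replicate 1 and 8 in replicate 2, where the shares of all genes were 29.7% and 38.0%. Their median log2 ratio was -3.14, or -4.21 with genes at 0 counts set to their bound. H2-Q and H2-T genes belong to multigene families whose members can share reads, which the authors' estimate divided. The posterior SD was 8.75 counts for H2-Q5, 10.0 for H2-Q6 and 15.2 for H2-T10 in replicate 1.

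Of 23 regulators of class I genes averaging at least 100 counts, 4 had 3 or fewer counts in 1 library, as had 7 of 14 interferon response genes, beside 35.1% of all 9341 genes. Nlrc5, the class I coactivator, had 0 counts in replicate 1 and 283 in replicate 2. Nfkb1 had 0 and 5136, Irf8 0 and 1010, and Irf7, named after its values were seen, 1 and 1780. Rfx5, a partner of Nlrc5, had 0 and 53, so its mean lay below 100 counts and it is not among the 23. Ifngr1, a chain of the interferon gamma receptor, was the highest of the list at 1014 and 955 TPM, Jak1 stood at 254 and 194 TPM, Ifnar2 at 215 and 112 TPM, Nfyc at 86.1 and 175 TPM, and Creb1 at 107 and 114 TPM. The 27 regulators summed to 2168 TPM in replicate 1 and 2418 TPM in replicate 2, and 20 were read in both pups. Of the 23, 5 were at least 2-fold higher in replicate 1 and 10 in replicate 2, with a median log2 ratio of -0.24. The shares of all 9341 genes were 29.7% and 38.0%. The 18 interferon response genes summed to 752 TPM in replicate 1 and 1053 TPM in replicate 2, and 10 were read in both. The immunity GTPase gene Igtp stood at 134 and 245 TPM, Ifi27 at 207 and 269 TPM, and Irgm1 had 0 and 3906 counts. In the other direction, Oas1a had 1313 counts in replicate 1 and 0 in replicate 2, and Ifit1 had 74 and 0. Of 14 averaging at least 100 counts, 3 were at least 2-fold higher in replicate 1 and 6 in replicate 2, with a median log2 ratio of -0.84. Beside them stand the same shares of all genes, 29.7% and 38.0%.

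**Figure D4:**
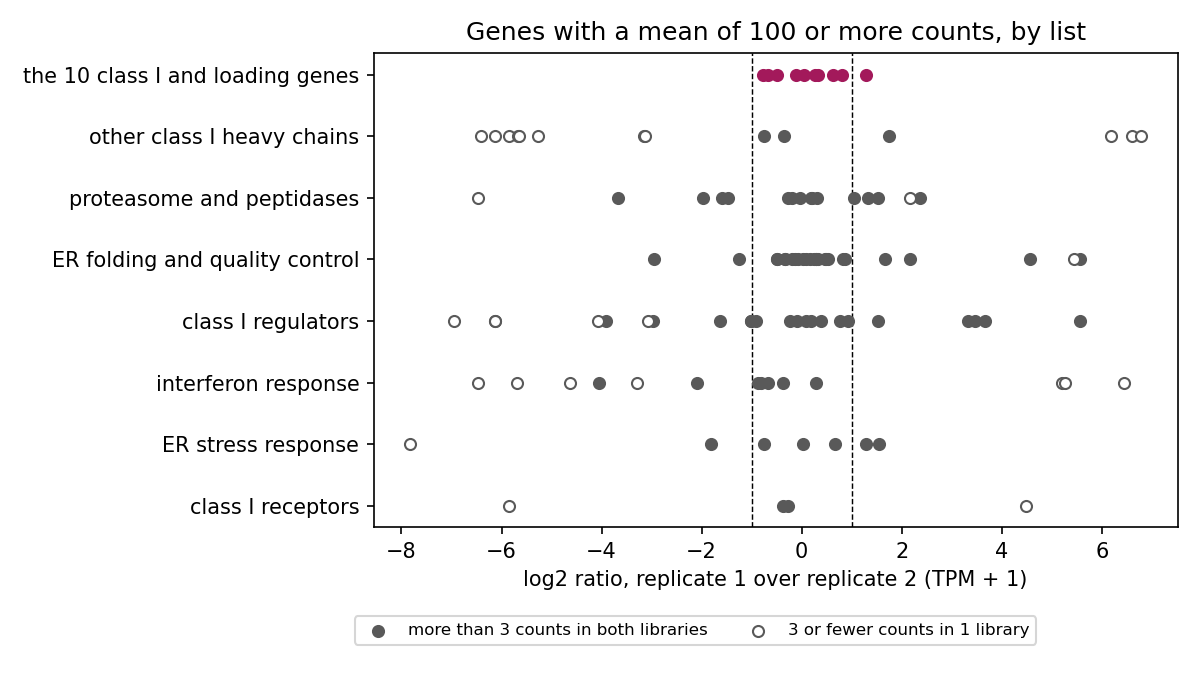
Log2 ratio of replicate 1 over replicate 2 (TPM + 1) for each gene averaging at least 100 counts, by list, with dashed lines at 2-fold and open points for genes with 3 or fewer counts in 1 library. The 10 class I and loading genes run from -0.78 to 1.28, and 10 of the 14 other heavy chains are open points far from 0.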

How the data were processed

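RNA above 200 nt from 2 newborn thymus samples was measured in 1 library each. Extraction used the mirVana kit and the linked protocol document is named for Smart-seq, per the labels. The deposited tables give an expected count and TPM per gene and transcript, posterior mean TPM, a posterior SD of the count, and the percent of a gene's TPM held by each transcript. The labels give the assembly as mm10, and the authors' deposited notes name annotation M4. Aligner and counting program were not given in the sources used here. Each library has a table of its own. Effective lengths are 99 bases shorter than lengths, and TPM depends on the transcripts chosen by the authors' estimate.

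Of 43346 mouse IDs, 42462 were matched to GENCODE M21 without version, and 44 of the members' 48 transcripts had the same length there. TPM was rescaled to 1000000 over mouse genes, and log2 ratios used a pseudocount of 1 TPM. Levels are mean ± SD of 2 samples, a spread that holds pup, RNA handling and library together. The SD has 1 degree of freedom, and no p-value is given. The floor for a count of 0 is 3 counts, or 0.115 (replicate 1) and 0.0940 (replicate 2) counts per 1000000 mouse counts. This floor refers to reads, and its meaning for the RNA level was not tested. The ratio script was tested on simulated data. Alternatives used edgeR 4.0.16 (TMM) and DESeq2 1.42.0 size factors on expected counts rounded to whole numbers.

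The members and gene lists were chosen with earlier results of these data known. Genes named outside the members are up to 5 of each list by mean TPM and those with at least 10 counts in 1 library but 0 in the other, together with genes nearest in level to B2m, H2-K1 and Tap1. Markers at 0 (Itgax, Kdr, Emcn) and genes that overlap or adjoin a member (Psmb9 among them) are named outside that rule, with their values known. Not every gene the rule selects is named. List names not found in M21 were dropped. Motif shares count promoters in the RefSeq table, and entries with numeric IDs were not used.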

Additional observations from a re-analysis of the deposited data

How the results depend on the processing

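Across the 8 alternatives that recompute the members' ratios, the count past 2-fold was 1, Pdia3 each time; another 3 change only the background genes. With both libraries kept, levels lay within 1 SD of the reported value in 37 of 40 cases, and posterior mean TPM moved none of 32 values. With TPM as deposited, the summed level was 4719 TPM, Tap2 145 TPM and Tapbp 170 TPM, and without mitochondrial genes Tapbp stood at 189 TPM. The SDs of Tap2 and Tapbp are small, so these small shifts exceed them. As a share of expected counts in place of TPM, Calr-201 held 87.8%, H2-D1-202 99.8%, Pdia3-201 90.8% and Tapbp-201 88.8%, the mean of both libraries. Of 80 log2 ratios of members, 21 moved. Tap2 stood at -0.50 by TMM and -0.55 by DESeq2 size factors, against -0.11, and H2-T23 at -0.26 and -0.31, against -0.50, both scalings leaving transcript length out. Tapbp turned to higher in replicate 2 when scaled to spike-ins, by TMM or by DESeq2 size factors, which left 5 members higher in each pup, and no scaling moved the median ratio of all genes by over 0.1. Leaving out a replicate gives the other library's level, always within 1 SD of the mean of 2 by construction. The share of mouse genes past 2-fold was 16.7% with no minimum count, 56.0% at a mean of 1000 or more counts, 55.7% with a pseudocount of 10 TPM and 22.2% in the members' count range, a background chosen after seeing the data. No paired analysis was possible because the samples form 1 group. The 2 libraries limit every ratio here to a description.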

Other observations

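Of a list of receptors that bind class I molecules and other natural killer receptors, 15 genes were found. Only 2 were read in both pups, the chains of the CD8 coreceptor. Cd8b1 stood at 824 TPM in replicate 1 and 992 TPM in replicate 2, and Cd8a at 231 and 300 TPM. The natural killer receptor chain Klrd1 had 345 counts in replicate 1 and 0 in replicate 2, Cd244a had 0 and 1605, and Pirb had 1 and 0. The remaining 10, among them Klrk1, Klrc1, Cd160 and all 7 Klra genes found, had 0 counts in both libraries, which allows up to 0.115 counts in each 1000000 mouse counts in replicate 1 and 0.0940 in replicate 2. Klrk1, Klrc1, Cd160 and the Klra genes were named after their values were seen.

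Among 21473 protein-coding genes, those nearest to B2m in level, by distance of log2(TPM + 1) over the 2 libraries, were Hmgb1, Rpl37a and Rplp1, at 0.076, 0.091 and 0.12. Those nearest to H2-K1 were Rpl21, Atp5c1 and Hmga1, at 0.042, 0.064 and 0.084, and those nearest to Tap1 were Eif4a1, Phb2 and Ccng2, at 0.0043, 0.021 and 0.027. With 2 points per gene this describes a level and its direction between the pups.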
